A study of Mus musculus with 16 samples.

Results

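The cell cycle genes described here are 60 named genes that dividing cells switch on, read in the CD8+ T cells of mouse kidney allografts and spleens. The list was given by name, and 20 genes were set apart as an S-phase list, 30 as a mitosis list, and the remaining 10 belong to neither. They are 60 of the 32285 genes listed in any of the 9 CD8+ T cell matrices. Each of the 60 genes had at least 1 unique molecular identifier (UMI, 1 counted RNA molecule) in 7 of the 9 groups, while Hmmr had none in the libraries labelled accepted graft at 24 weeks and Bub1 had none in those labelled recipient spleen at 24 weeks.

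Single-cell RNA was measured by droplet sequencing of the 3′ end in viable CD45+ leukocytes of male mice, and the authors' CD8+ T cell matrices were used. Accepted kidney allografts were DBA/2J kidneys placed in C57BL/6J (B6) recipients, taken at 1 week (libraries 7K1 to 7K3), 3 weeks (TK1 to TK5) and 24 weeks (6MK1 to 6MK3) together with the recipient spleens (7S1 to 7S3, TS1 to TS5 and 6MS1 to 6MS3). Rejecting grafts were C57BL/6J kidneys in DBA/2J recipients at 1 week (R7K2 and R7K3) with their spleens (R7S1 to R7S3), and 5 naive spleens (NS1 to NS5) had no transplant. Donor and recipient strains were swapped between acceptance and rejection, so outcome and strain cannot be told apart, and no source used here says which libraries were prepared together.

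A cell that commits to division passes through a fixed series of states, and most of the 60 genes are switched on only for part of it. The MCM proteins are loaded on DNA as the replicative helicase by Cdc6 and Cdt1 in a step called licensing, GINS joins them when origins fire, and Tyms, the ribonucleotide reductase subunits Rrm1 and Rrm2, Tk1 and Dut keep up the supply of nucleotides. Cyclin B with the kinase Cdk1 then drives the cell into mitosis, the Aurora and Polo kinases and the chromosomal passenger proteins build and check the spindle, and Cdc20 with Ube2c marks cyclin B for destruction. E2F proteins switch on many genes of the S phase, while many mitosis genes carry a promoter element called CHR, bound by the MuvB complex, beside CCAAT boxes bound by NF-Y. Activated CD8+ T cells divide quickly, and resting naive T cells do not.

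The promoters of the 2 lists differed in the letters they hold, and 6 windows are shown because they carry those letters. The capitals mark the match, each window runs 5′ to 3′ on the gene's own strand, and the sequences are from RefSeq on GRCm38.p6.
Mcm5: cgccaagaactTTCGCGCcaaaacgtccag
Mcm6: attggacgggtTTGGCGCgaagtagctcag
Mki67: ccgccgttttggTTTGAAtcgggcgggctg
Cdc20: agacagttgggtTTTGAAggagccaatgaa
Cdk1: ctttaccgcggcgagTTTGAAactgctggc
Ube2c: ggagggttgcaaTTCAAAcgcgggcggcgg
Mcm5 (chr8:75109346-75109375, plus strand) and Mcm6 (chr1:128359733-128359762, minus strand) show E2F letters 145 and 39 bases before the gene start. Mki67 (chr7:135716460-135716489, minus strand), Cdc20 (chr4:118437344-118437373, minus strand) and Cdk1 (chr10:69352913-69352942, minus strand) show the CHR letters 92, 12 and 9 bases before it. Ube2c (chr2:164769888-164769917, plus strand) holds the same letters on the opposite strand, 23 bases before its start.

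Of the 60 genes, 48 matched a promoter entry of 250 bases before to 50 after the gene start. The E2F letters TTCGCGC, the letters TTGGCGC, the letters TTCCCGC and the letters TTGCCGC, searched on both strands and counted as 1 motif, stood in 11 of 17 S-phase promoters (64.7%) and in 5 of 25 mitosis promoters (20%), against 9.69% of the promoters of all 27025 genes. The CHR letters TTTGAA stood in 1 of 17 S-phase promoters (5.88%) and in 18 of 25 mitosis promoters (72.0%), against 18.1% of all promoters. CCAAT was present in 64.7% of S-phase and 88.0% of mitosis promoters, against 37.9% of all, and CHR with CCAAT in the same promoter in 72.0% of mitosis promoters against 7.12% of all. The letters of CHR and CCAAT can share 1 letter where they meet. The E2F letters TTGGCGC can overlap CCAAT too, and the only E2F match of Ccnb1 overlaps a CCAAT match. The shares of these motifs are therefore not independent, and a match is a description of the window only.

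The 32 libraries held 56 to 8407 cells and 153266 to 25960721 UMIs. UMIs of Cd8a or Cd8b1 marked 83.5% to 90.1% of cells of accepted grafts at 1 week, 96.3% to 97.0% at 3 weeks and 95% to 97.6% in naive spleen, but only 41.9% to 51.8% of cells in recipient spleens at 1 and 3 weeks, where 10.0% to 23.0% of cells carried Cd4 without Cd8a or Cd8b1. In rejecting grafts 76.6% to 78.1% of cells and in rejecting spleens 100% had a UMI of Cd8a or Cd8b1, and no cell of either carried Cd4 without them, so these matrices differ in make-up from those of accepting recipients. The summed level of 5 B cell markers, all 5 detected in each spleen library, was 489 to 975 CPM (UMIs per 1000000 UMIs of the library) in spleens at 1 week, 119 to 303 CPM at 3 weeks and 28.9 to 59.5 CPM in naive spleen. At 24 weeks the labels are in doubt. The libraries labelled graft had Cd8a or Cd8b1 UMIs in 46.2% to 49.2% of cells and UMIs of 3 to 4 of 20 kidney parenchyma markers, while those labelled spleen had them in 93.4% to 95.3% of cells and UMIs of 11 to 12 of these markers, so results at 24 weeks are given for libraries as labelled. The library R7S2 had 56 cells and a summed neutrophil marker level of 1037 CPM, against 30.2 CPM in R7S1. Of 496 pairs of libraries, 269 shared at least 1 cell barcode, with a median of 1 and at most 1.79% of the smaller library.

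In accepted kidney allografts the summed S-phase and mitosis genes stood at their highest at 1 week, and 59 of the 60 genes were lower at 3 weeks. The mitosis genes summed to 2713, 2079 and 4165 CPM in the 3 libraries at 1 week and to 257, 250, 268, 280 and 295 CPM in the 5 libraries at 3 weeks, a group mean of 2986 ± 1069 (SD, n = 3) against 270 ± 18.4 CPM (SD, n = 5). The S-phase genes summed to 1749, 1459 and 2263 CPM at 1 week and to 434, 433, 428, 448 and 436 CPM at 3 weeks, means of 1824 ± 407 and 436 ± 7.22 CPM. The groups did not overlap in either sum, and library 7K3 was the highest of its group in both. In naive spleen the mitosis sum was 91.3 CPM and the S-phase sum 316 CPM on average, so that the S-phase sum at 3 weeks lay closer to the naive level than the mitosis sum did. Cenpa alone gave 1197 of 2877 mitosis UMIs in TK1 and 1605 of 3301 in TK5. It gave 159 of 462 in the naive spleen NS1 and 3556 of 36312 in 7K1. In sums over cells, fewer dividing cells and less RNA per dividing cell cannot be told apart.

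**Figure D1:**
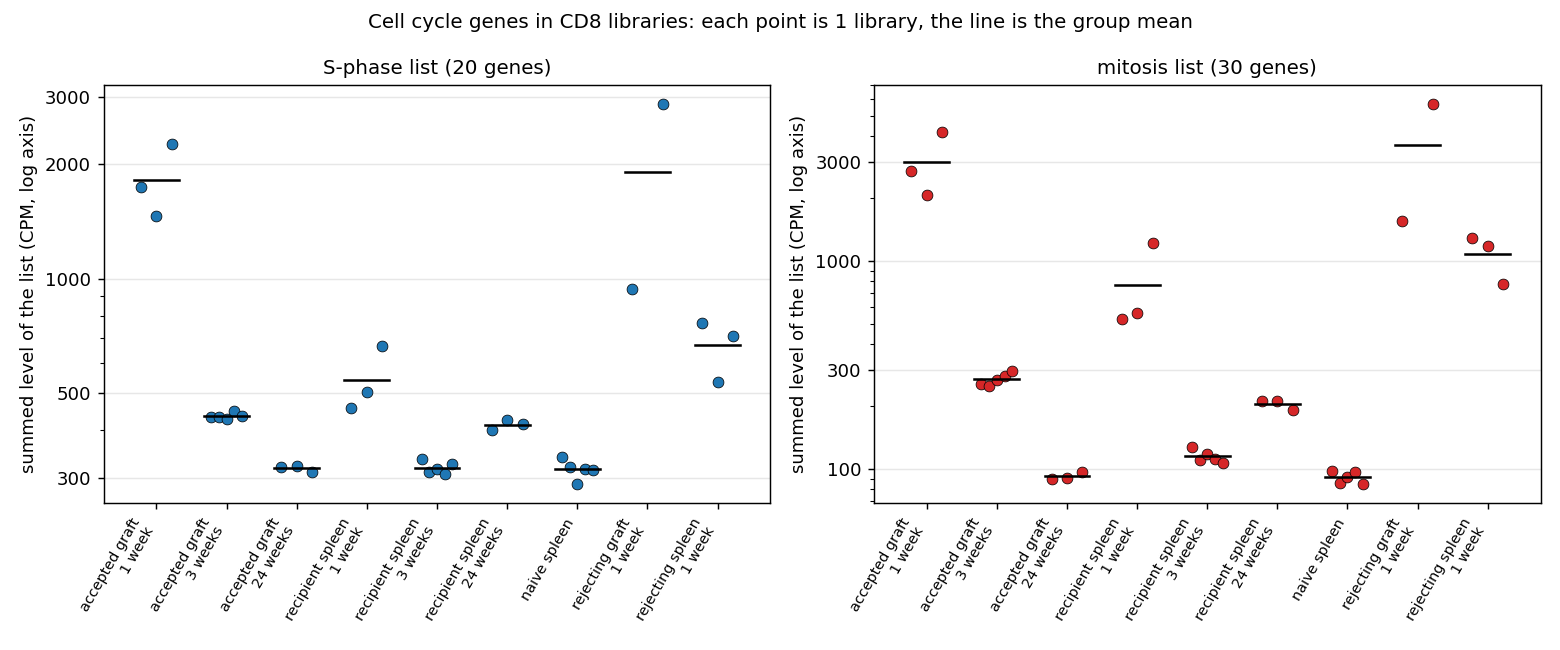
Summed level of the 20 S-phase genes and of the 30 mitosis genes in CPM (log axis) for each of the 9 groups of CD8+ T cell libraries. Each point is 1 library and each line a group mean. The accepted grafts at 1 week lie between 1459 and 2263 CPM for S phase and between 2079 and 4165 CPM for mitosis, above the other accepted and naive groups.

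All 60 genes were tested between 3 and 1 week, and 59 were lower at 3 weeks and none higher (edgeR's quasi-likelihood test, Benjamini-Hochberg adjusted over 11693 genes). Among the genes tested, 21.5% were lower and 53.5% higher. The median log2 fold change of the members was -3.20, against 0.41 over all genes, and with TMM scaling, which brought the median of all genes to 0.03, all 60 members were lower, against 35.6% lower and 35.2% higher of all genes. The median was -4.57 in the mitosis list (30 of 30 lower, -7.46 to -1.23), -2.08 in the S-phase list (19 of 20 lower, -6.68 to -0.28) and -2.01 among the genes of neither list (10 of 10 lower). The library total sets this scale, and changes relative to the median of all genes are larger by the shift given. Mitochondrial UMIs were 3.69% to 4.49% of the total at 1 week and 2.06% to 2.38% at 3 weeks, and the part of this in the fall was not tested. Median changes in 10 groups of genes by intron length ran from 0.14 to 0.81, and with that shift removed all 60 members were lower. The share of all genes that was lower in that fit is not given here.

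Among the licensing and origin genes, 8 of 9 were lower. Mcm5, a helicase subunit, stood at 54.2, 43.1 and 66.5 CPM at 1 week and at 14.7, 13.3, 10.6, 13.9 and 10.7 CPM at 3 weeks. The groups did not overlap, and Mcm5 fell by 2.12 ± 0.14 (log2, SE; adjusted p = 9.8e-09), a 4.34-fold difference. Gins2, a subunit of the GINS complex, fell by 2.14 ± 0.20. Mcm4 and Mcm6 fell the least among the tested helicase subunits, by 0.92 ± 0.11 and 0.85 ± 0.09. Cdt1, the loading factor, was the member that did not pass, with 27.9, 21.1 and 27.1 CPM at 1 week and 16.3, 22.4, 23.2, 21.8 and 21.1 CPM at 3 weeks (log2 fold change -0.28 ± 0.12, adjusted p = 0.054). Its values overlapped between the groups, and it passed the test under TMM scaling.

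The nucleotide supply and fork genes were all lower, 5 of 5 and 4 of 4. Rrm2, the cell cycle regulated subunit of ribonucleotide reductase, went from 56.8, 43.8 and 77.9 CPM at 1 week to 1.61, 1.74, 2.00, 2.18 and 1.79 CPM at 3 weeks, and fell by 5.0 ± 0.19. Tyms, thymidylate synthase, fell by 2.49 ± 0.14. Pclaf, a partner of the sliding clamp, went from 244, 194 and 349 CPM to between 1.58 and 3.46 CPM, a 103-fold fall and the largest of the S-phase list. Pcna, the clamp itself, stood at 156, 151 and 196 CPM and then at 75.6, 74.9, 71.6, 76.1 and 79.7 CPM, a 2.22-fold fall. On the log2 scale Pcna changed by -1.15 ± 0.09 and Pclaf by -6.68 ± 0.21, unequal changes of the transcripts of 2 proteins that bind each other at the fork.

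The mitotic genes fell furthest. Birc5, survivin of the chromosomal passenger complex, stood at 188, 159 and 349 CPM at 1 week and at 0.892, 1.54, 2.00, 0.990 and 1.16 CPM at 3 weeks, which rest on 13826 and 70 UMIs. It fell by 7.46 ± 0.28 on the log2 scale (176-fold, adjusted p = 8.2e-11), the largest change of the 60. Ccnb2, a B-type cyclin, fell by 7.42 ± 0.27, and Ube2c, the ubiquitin-conjugating enzyme of the anaphase-promoting complex, by 7.28 ± 0.27. Hmmr, a spindle protein, fell by 6.87 ± 0.32, and Bub1, a checkpoint kinase, by 6.81 ± 0.37. Each graft library at 3 weeks held 3 to 7 UMIs of Ccnb2, 4 to 9 of Hmmr and 0 to 4 of Bub1. The sizes of these changes, and their order, therefore rest on few UMIs. All 7 genes of the mitotic kinases, checkpoint and passenger group were lower (-7.46 to -3.28), among them the Polo kinase gene Plk1 (-5.39 ± 0.34), as were all 8 spindle and cytokinesis genes (-6.87 to -2.75) and all 5 centromere and kinetochore genes (-6.20 to -1.23).

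Other mitotic genes fell by less than Birc5. Mki67, which coats mitotic chromosomes and is the usual marker of cycling cells, stood at 293, 197 and 411 CPM at 1 week and at 22.4, 16.8, 19.8, 21.6 and 22.1 CPM at 3 weeks. It fell by 3.87 ± 0.18 (14.6-fold, adjusted p = 5.1e-10), with each value at 3 weeks above each of the 5 naive spleens (0.479 to 3.23 CPM). Top2a, the topoisomerase that untangles sister chromatids, went from 318, 219 and 417 CPM to 38.4, 39.6, 45, 48.4 and 45.4 CPM and fell by 2.88 ± 0.15. Cdk1, the mitotic kinase, went from 61.2, 51.4 and 107 CPM to between 2.46 and 4.29 CPM (-4.51 ± 0.23), and its partner cyclin Ccnb1 from 28.5, 23.4 and 54.3 CPM to between 0.615 and 1.61 CPM (-5.0 ± 0.30).

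Stmn1, stathmin, which destabilizes microtubules, stood at 594, 490 and 881 CPM at 1 week and at 9.10, 13.7, 14.2, 15.6 and 13.6 CPM at 3 weeks, a 49.5-fold fall. The tubulin genes Tuba1b and Tubb5 fell by 2.39 ± 0.20 and 1.76 ± 0.13. Smc4, a condensin subunit, fell the least of the 59 genes, from 312, 259 and 335 CPM to between 179 and 203 CPM (-0.67 ± 0.09). Cyclin E1 (Ccne1), which starts S phase with Cdk2, fell by 1.91 ± 0.19.

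**Figure D2:**
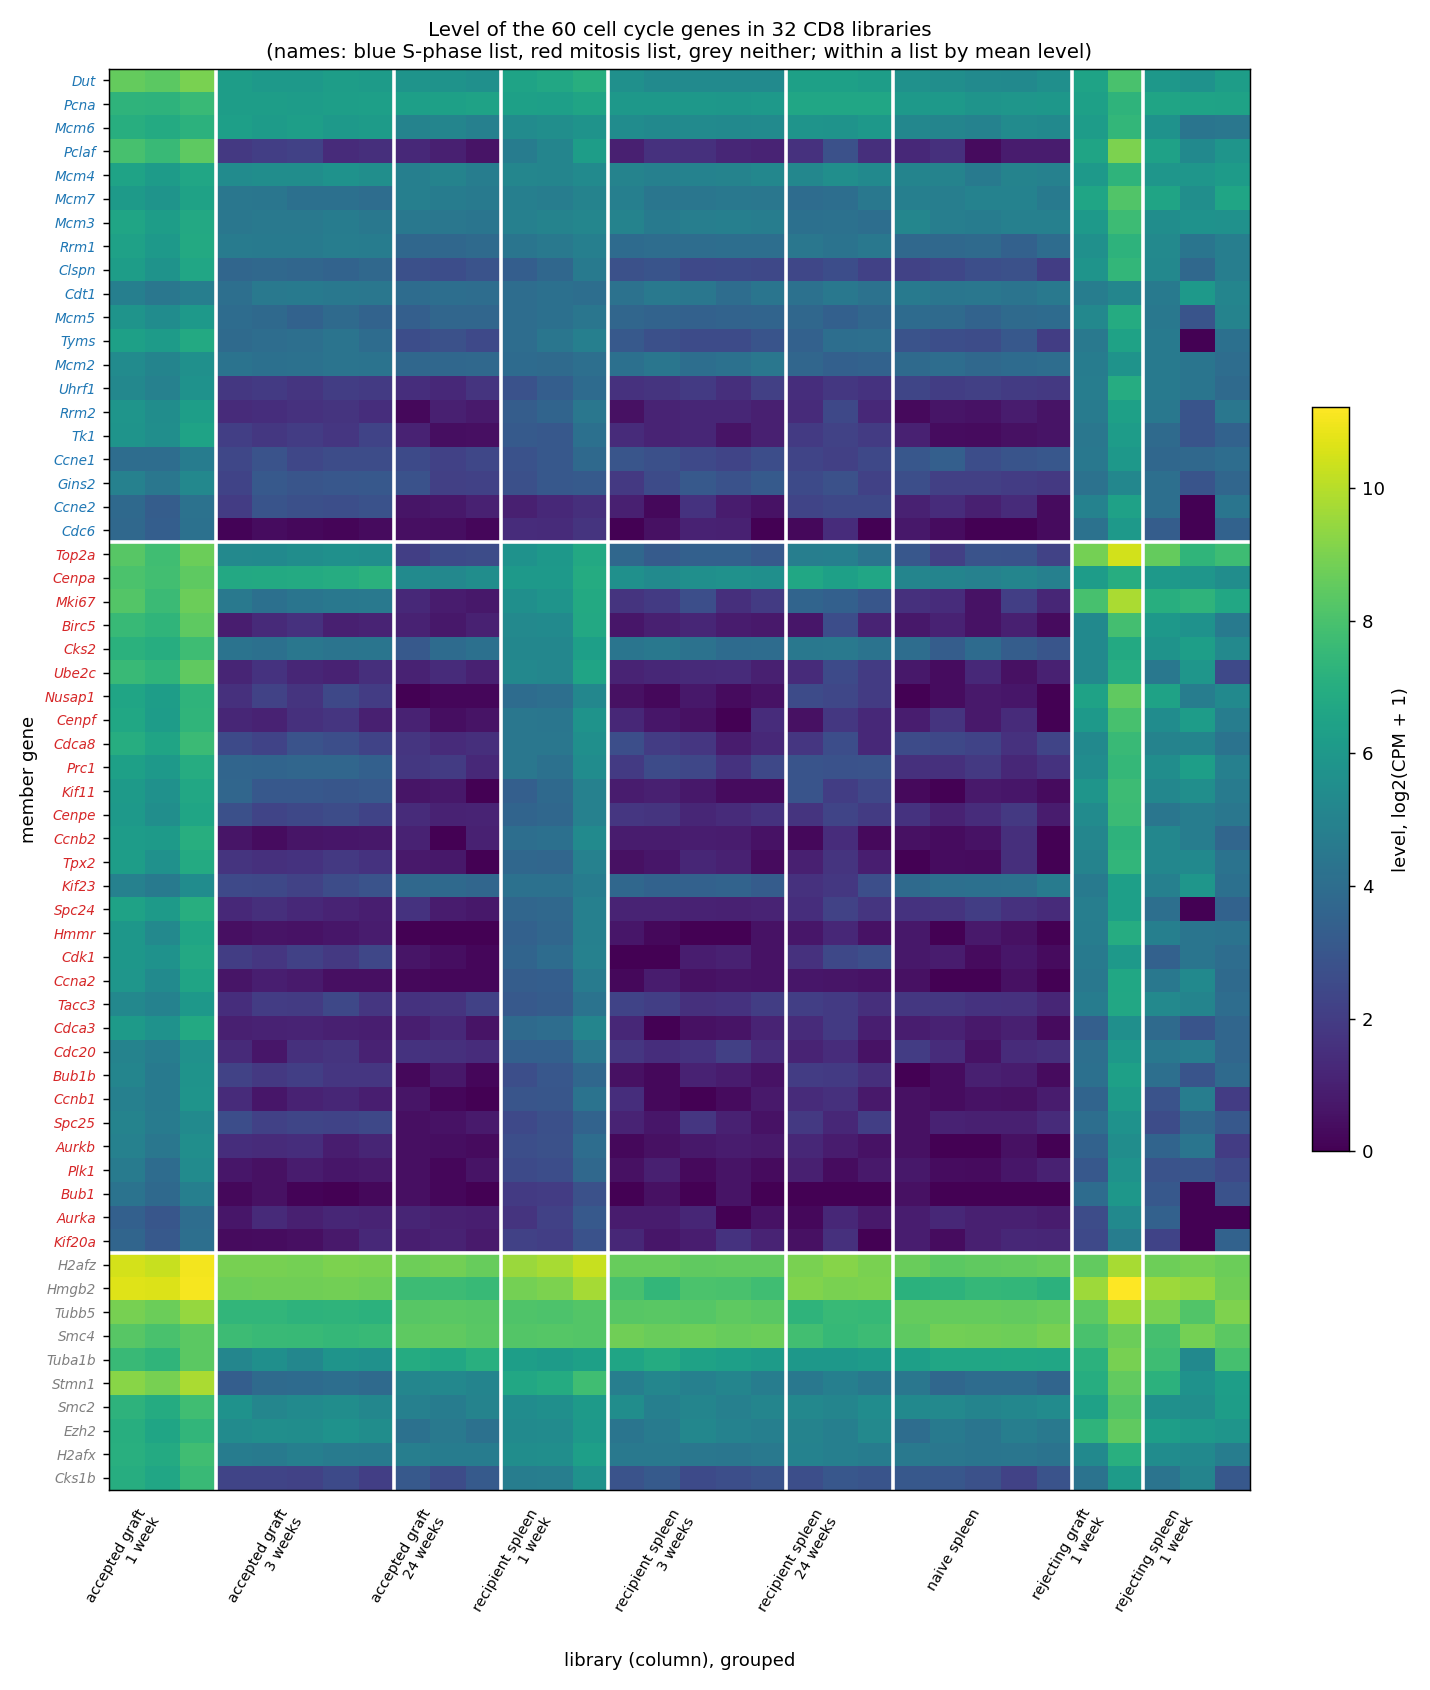
Level of the 60 cell cycle genes, as log2(CPM + 1), in each of the 32 CD8+ T cell libraries, with genes in rows by list and libraries in columns by group. Most mitosis genes are brighter in the 1-week accepted grafts and in R7K3 than in the 24-week graft, 3-week spleen and naive spleen libraries, whereas Smc4 and Tubb5 are bright in all groups.

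Other lists of cell cycle genes, none of them among the 60, were read in the same comparison, in which 53.5% of all genes were higher and 21.5% lower at 3 weeks. Of 35 other replication genes tested, such as polymerase and replication factor C subunits, 28 were lower and 1 higher at 3 weeks (median -1.66), and of 40 other mitosis genes 39 were lower and 1 higher (median -3.37). Of 31 regulators of the step into S phase, 17 were lower and 10 higher (median -0.58). The cyclin D genes Ccnd2 and Ccnd3 rose by 1.39 and 1.05 and their kinase Cdk6 by 1.31, against the median of 0.41 over all genes, while E2f1, Foxm1 and Mybl2, transcription factors of the cycle, fell by 2.79, 3.22 and 4.42. The named genes of these lists were chosen after their values were seen.

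Cells that hold several of the genes at the same time were counted next. After each cell was thinned to 1000 UMIs, 22.8%, 18.2% and 38.5% of cells in the 3 libraries at 1 week had UMIs of at least 2 S-phase genes, and 6.18% to 6.90% in the 5 libraries at 3 weeks. At least 2 mitosis genes were found in 22%, 17.6% and 43.9% of cells at 1 week and in 1.87% to 2.88% at 3 weeks. The means were 26.5 ± 10.6% and 6.46 ± 0.27% for S phase and 27.8 ± 14.1% and 2.27 ± 0.43% for mitosis, 4.10 and 12.3 times higher at 1 week. Without thinning they were 48.1% and 25.0% for S phase and 44.8% and 10.1% for mitosis, and in cells with a CD8 UMI and no Cd4 UMI the thinned mitosis shares were 27.3% and 2.22%. Naive spleen had means of 3.47% for S phase and 0.313% for mitosis with thinning, and 36.8% and 5.19% without. Its cells were deeper, with medians of 3710.5 to 4980 UMIs against 1957 to 2967 in grafts at 3 weeks. A share is therefore not a count of dividing cells. No cell of the accepted grafts at 1 or 3 weeks was left out by the thinning. Without thinning, where a deeper cell reaches 2 detected genes more easily, cells with at least 2 genes of a list had a median of 3062 UMIs against 1586 in the other cells of 7K1, and of 3186 against 2820 in TK1.

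**Figure D3:**
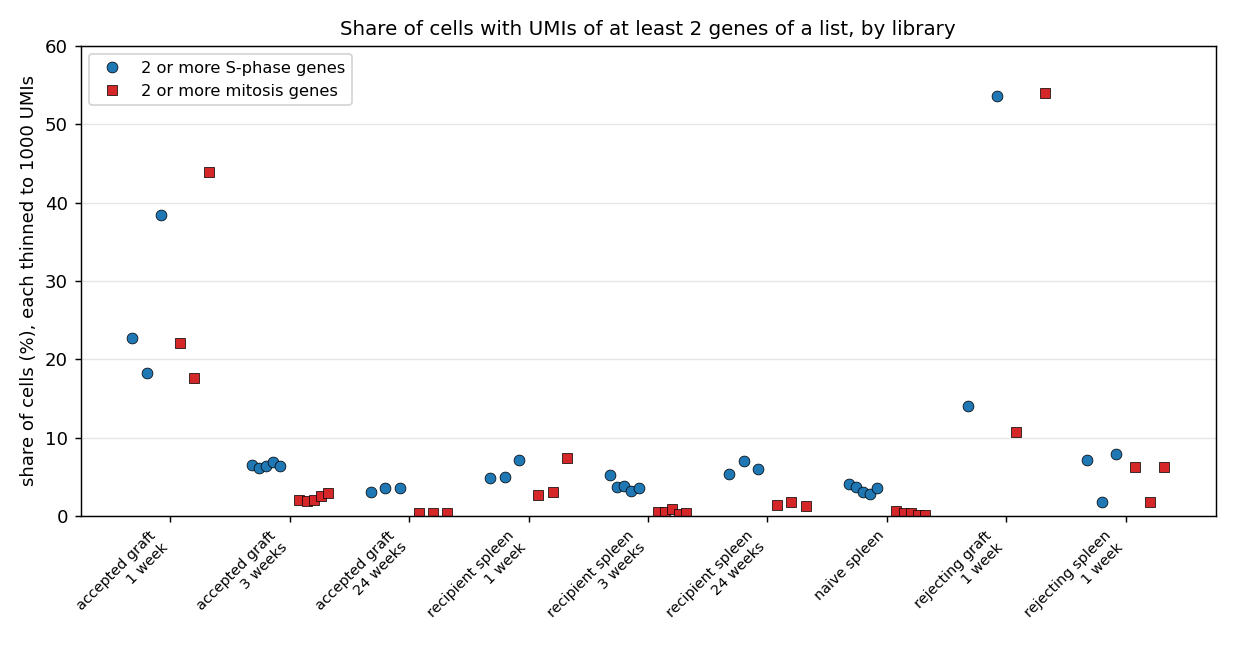
Share of cells (%) with UMIs of at least 2 S-phase genes or at least 2 mitosis genes after each cell was thinned to 1000 UMIs, for each group of CD8+ T cell libraries. Each point is 1 library. At 1 week the accepted grafts reach 18.2% to 38.5% for S phase, and at 3 weeks 6.18% to 6.90%.

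The 2 lists changed their proportion to each other as well as their level. Mitosis UMIs per S-phase UMI were 1.55, 1.42 and 1.84 in accepted grafts at 1 week and 0.576 to 0.678 at 3 weeks. In recipient spleens the ratio was 1.16, 1.11 and 1.84 at 1 week and 0.330 to 0.380 at 3 weeks, and in naive spleen 0.268 to 0.319. In rejecting grafts it was 1.66 and 1.97. The groups at 1 week did not overlap with the groups at 3 weeks or with naive spleen in this ratio. In the graft at 3 weeks the ratio rested in large part on Cenpa, as given above for the sums.

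Recipient spleens at 1 week were compared with naive spleens to see whether the programme was also raised outside the graft. The mitosis sum was 528, 560 and 1226 CPM in recipient spleens and 97.5, 86.0, 92.0, 96.7 and 84.5 CPM in naive spleens, and the S-phase sum 456, 503 and 666 CPM against 340, 321, 288, 317 and 314 CPM. Neither sum overlapped, and 7S3 was highest in both. Of 58 genes tested, 49 were higher and 4 lower at 1 week, against 25% higher and 35.2% lower of all genes tested, and the median was 2.50 against -0.12 over all genes. Of the mitosis genes 29 of 30 were higher (median 4.31), and of the tested S-phase genes 13 of 18 (median 0.68). A low gene could enter the test through the group where it is high.

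Birc5 rose the most, from between 0.262 and 1.11 CPM in naive spleens to 38.3, 40.4 and 110 CPM (log2 fold change 6.46 ± 0.50, adjusted p = 1.8e-08). Ube2c (6.16 ± 0.46), the S and G2 cyclin Ccna2 (6.12 ± 0.60), the spindle protein Nusap1 (6.01 ± 0.50) and the spindle motor Kif11 (5.50 ± 0.53) followed. Birc5 and these genes had 0 to 6 UMIs in each naive library, so the sizes of their changes rest on few UMIs. Mki67 was at 46.4, 54.7 and 112 CPM in recipient spleens and at 1.90, 1.67, 0.479, 3.23 and 1.31 CPM in naive spleens, a 39.8-fold difference. Pclaf, Rrm2 and Cdk1 were higher by 5.41, 4.69 and 5.11.

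Of the licensing genes, 4 of 8 tested were higher in the spleen at 1 week than in naive spleen and 1, Cdt1, was lower (-0.39 ± 0.11), and their sum was 183, 193 and 222 CPM against 157 to 187 CPM in naive spleens. Mcm5 was at 14.9, 16.8 and 20.5 CPM against 14.1, 13.6, 11, 13.9 and 14.1 CPM, a log2 difference of 0.38 ± 0.13 that passed the test (adjusted p = 0.020), and Pcna at 83.0, 80.2 and 93.4 CPM against 55.6 to 66.3 CPM (0.48 ± 0.08). Mcm2, Mcm3 and Mcm7 did not pass, with log2 differences of 0.06 ± 0.12, 0.12 ± 0.11 and 0.06 ± 0.10. Smc4, Tubb5 and Tuba1b were lower by 0.50, 0.42 and 0.30 on the log2 scale. B cell marker UMIs and cells with Cd4 UMIs were also more frequent in these spleens, as given above. Among cells with a CD8 UMI and no Cd4 UMI, 44 of 55 tested members were higher and 4 lower. With each cell thinned to 1000 UMIs 30 members were tested, of which 18 were higher and 5 lower, with a median of 1.03. The shares of all genes in these refits are not given here, so neither count is read against a background.

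Graft and spleen of accepted recipients were compared at 1 week to see where the programme stood higher. All members but Smc4 were higher in the graft, 59 of 60, against 27.3% higher and 24.1% lower of all genes tested, with medians of 1.88 and 0.00. Mki67 was at 293, 197 and 411 CPM in the graft and at 46.4, 54.7 and 112 CPM in the spleen (log2 fold change 2.07 ± 0.32, adjusted p = 0.00034). The groups did not overlap. Cyclin E2 (Ccne2) differed most, with 13.1, 9.0 and 18 CPM against 0.959, 1.49 and 1.88 CPM (3.21 ± 0.31), then Cdc6 (2.85 ± 0.27), Pclaf (2.56 ± 0.34), Tk1 (2.56 ± 0.31) and the kinetochore gene Spc24 (2.39 ± 0.31).

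Both lists stood higher in the graft, the S-phase genes by a median of 1.90 (20 of 20 higher) and the mitosis genes by 1.91 (30 of 30 higher). A difference between the 2 lists was not tested. The smallest differences among the genes that passed were those of Cdt1 (0.68 ± 0.13), Kif23, a motor of cytokinesis (0.70 ± 0.22), the histone variant gene H2afz (0.78 ± 0.21) and Tubb5 (0.91 ± 0.16). Smc4 was at 312, 259 and 335 CPM in the graft and at 299, 308 and 300 CPM in the spleen, and its difference of 0.00 ± 0.11 did not pass. Within cells with a CD8 UMI and no Cd4 UMI 57 members were higher and none lower, and the share of all genes in that fit is not given here. Of the other cycle genes, 35 of 35 replication and 39 of 40 mitosis genes were higher in the graft, whereas Ccnd1, Ccnd2 and Ccnd3 were lower by 1.43, 1.46 and 1.01 and Cdkn1a was higher by 3.02, genes that were chosen after their values were seen.

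The mitosis genes fell in the spleen between 1 and 3 weeks too. Of 58 genes tested, 50 were lower and 2 higher at 3 weeks, against 21.1% lower and 35.1% higher of all genes tested, and the median was -2.40 against 0.15 over all genes. All 30 mitosis genes were lower (median -4.01), as were 13 of 18 tested S-phase genes (median -0.65), but only 3 of 8 tested licensing genes. Birc5 fell by 6.14 ± 0.45, Hmmr by 5.93 ± 0.54, Nusap1 by 5.75 ± 0.44, Ube2c by 5.35 ± 0.39 and Cdk1 by 5.33 ± 0.49. These genes had 0 to 7 UMIs in each spleen library at 3 weeks. A low gene could enter the test through the group where it is high. Mki67 went from 46.4, 54.7 and 112 CPM to 2.19, 2.79, 5.40, 1.83 and 2.89 CPM. Gins2 did not pass (-0.28 ± 0.25), and Smc4 and Tubb5 were higher at 3 weeks by 0.46 ± 0.07 and 0.20 ± 0.07. Under TMM scaling, where the median of all genes was 0.02, 1 member was higher and 52 were lower, against 25.7% and 27.3% of all genes. The summed B cell markers fell from 489 to 975 CPM to 119 to 303 CPM between the same libraries, and cells with Cd4 and no CD8 UMI went from 10.0% to 13.5% of cells to 17.4% to 23.0%. Among cells with a CD8 UMI and no Cd4 UMI, 44 of 54 tested members were lower and 2 higher. In thinned cells 18 of 32 tested members were lower and 5 higher, with a median of -0.71. Shares of all genes in these refits are not given here, so the counts have no background of their own.

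The test of the difference between the graft's and the spleen's change found 31 of 60 genes with a more negative change in the graft and none with a more negative change in the spleen, against 10.9% and 29.2% of the 12319 genes tested. The median difference was -1.19 for the members and 0.24 for all genes. Without the spleen library 7S3 43 members passed, and the share of all genes in that fit is not given here. The 2 lists did not pass equally often: 15 of 20 S-phase genes (median -1.19), 7 of 30 mitosis genes (median -0.93) and 9 of 10 genes of neither list. The standard errors of the mitosis genes, which had few UMIs at 3 weeks, were wider, so a mitosis gene that did not pass is not shown to have changed equally.

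All 9 licensing and origin genes passed, with a difference of -4.16 ± 0.87 for Cdc6, -1.85 ± 0.36 for Gins2 and -1.46 ± 0.21 for Mcm5. Cdc6 had 131 to 445 UMIs in each graft library at 1 week, through which it could enter the test. It had only 1 to 3 in each graft library at 3 weeks. Each spleen library held 15 to 29 at 1 week and 0 to 5 at 3 weeks, so its difference rests on few UMIs. Pcna differed by -0.70 ± 0.12 and Ccne1 by -1.13 ± 0.34. Stmn1 differed by -3.32 ± 0.31 (adjusted p = 4.9e-08), since it went from 594, 490 and 881 CPM to between 9.10 and 15.6 CPM in the graft but from 106, 119 and 219 CPM to between 25.7 and 35.0 CPM in the spleen. Cks1b (-2.67 ± 0.39), a small partner of the cyclin-dependent kinases, Tuba1b (-2.62 ± 0.27), Ccnb2 (-2.42 ± 0.93) and Tubb5 (-1.95 ± 0.16) also passed. None of the 7 kinase, checkpoint and passenger genes passed, for example Birc5 (-1.31 ± 1.05) and Plk1 (-1.41 ± 0.98). Positive differences that did not pass were those of Kif11 (1.69 ± 0.74, adjusted p = 0.071), Cdk1 (0.84 ± 0.86), Mki67 (0.68 ± 0.47), Nusap1 (0.60 ± 0.89), Bub1b (0.20 ± 0.62) and Top2a (0.04 ± 0.31).

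**Figure D4:**
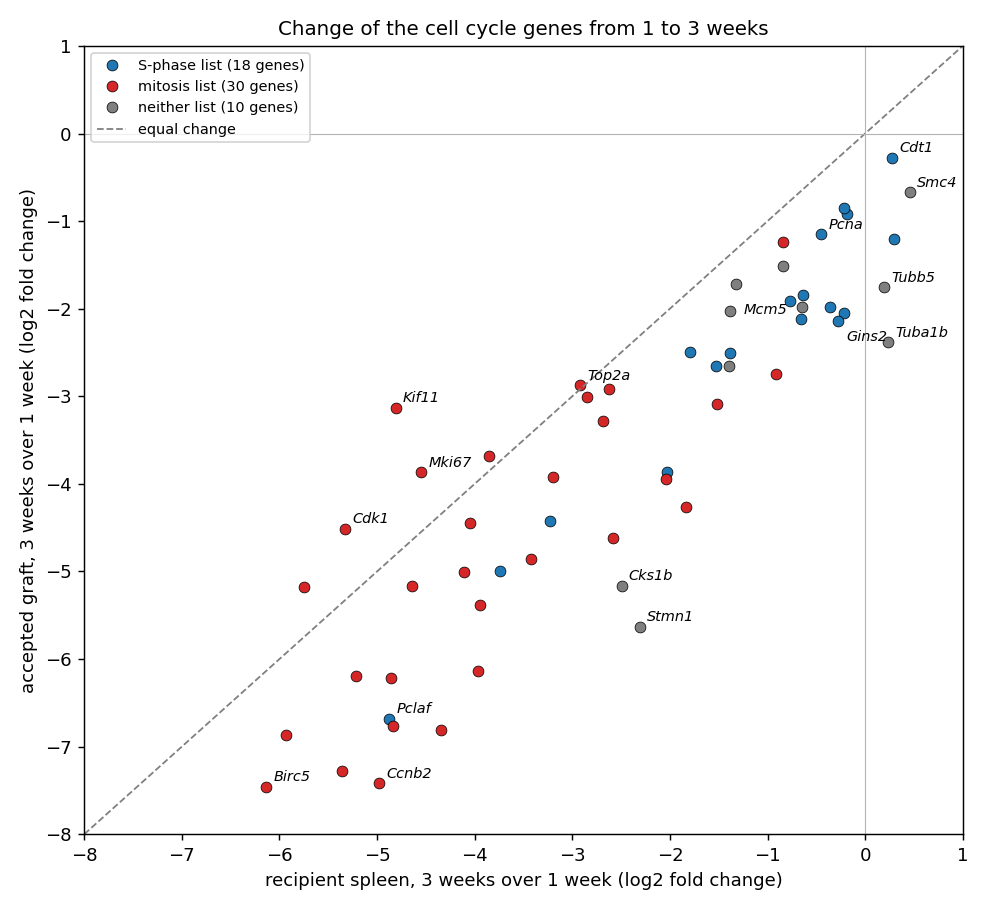
Log2 fold change from 1 to 3 weeks in recipient spleen (horizontal axis) and in the accepted graft (vertical axis) for the 58 cell cycle genes tested in both, colored by list, with a dashed line of equal change. S-phase genes such as Mcm5 (-0.65 in spleen, -2.12 in graft) lie below the line, while Mki67 (-4.55 and -3.87) and Kif11 (-4.81 and -3.13) lie above it. In cells thinned to 1000 UMIs the spleen change of Mcm5 was 0.0705.

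At 3 weeks the sums of both lists in the graft stood above naive spleen without overlap, as given above. The mitosis sum rested in large part on Cenpa, with 1104 to 1605 of the 2435 to 3301 mitosis UMIs of each graft library. Of 46 genes tested, 29 were higher and 9 lower in the graft, against 49.8% higher and 20.1% lower of all genes tested. The other 14 members, 13 of them mitosis genes such as Birc5, Ccnb1 and Plk1, had too few UMIs to be tested, and a low gene could enter the test through the group where it is high. Without the filter on low counts 32 of 60 were higher and 9 lower, a count that cannot be set against the filtered shares above. Kif11 was at 12.2, 7.48, 7.65, 7.13 and 7.87 CPM in the graft and at 0 to 0.719 CPM in naive spleen (4.44 ± 0.36), and Mki67 was higher by 3.52 ± 0.21, Nusap1 by 3.13 ± 0.50, Top2a by 2.98 ± 0.14 and Cdk1 by 2.60 ± 0.35.

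Tyms, Rrm2 and Pclaf were higher than in naive spleen by 1.48, 1.82 and 1.29, Gins2 by 0.88 and Pcna by 0.30, while Mcm5 did not pass (-0.08 ± 0.13). Kif23, Tubb5, Smc4, Tuba1b and Spc24 were lower by 1.86, 1.27, 1.18, 1.10 and 0.70 on the log2 scale. Stmn1 was at 9.10 to 15.6 CPM in the graft and 11.5 to 20.9 CPM in naive spleen and did not pass (-0.18 ± 0.16). The share of members that was higher, 29 of 46, lay little above the 49.8% of all genes, so the count by itself does not set them apart.

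At 24 weeks the libraries labelled accepted graft had the lowest mitosis sums of the grafts, 89.7, 90.7 and 97.3 CPM, with S-phase sums of 320, 322 and 311 CPM. Compared with 3 weeks, 33 of 53 tested genes were lower and 7 higher, against 56.9% lower and 16.6% higher of all genes tested (medians -0.64 and -0.44). Mki67 was at 1.44, 0.804 and 0.651 CPM, from 18 UMIs, against 16.8 to 22.4 CPM at 3 weeks (-4.45 ± 0.23). Nusap1 (-4.70 ± 0.62), Kif11 (-4.50 ± 0.44), Cdk1 (-3.32 ± 0.43) and Top2a (-3.28 ± 0.15) were lower as well. In 6MK1, 6MK2 and 6MK3 Nusap1 had 0, 1 and 1 UMIs, Kif11 3, 4 and 0 and Cdk1 3, 2 and 1. The sizes of the changes of Nusap1, Kif11 and Cdk1 therefore rest on few UMIs. Tuba1b (1.45 ± 0.13), Kif23 (1.4 ± 0.16), Stmn1 (1.38 ± 0.14), Tubb5 (1.02 ± 0.07), Smc4 (0.85 ± 0.06), Cks1b (0.85 ± 0.19) and Mcm7 (0.52 ± 0.12) were higher. With TMM scaling 25 members were lower and 11 higher, against 33.8% and 31.8% of all genes, and H2afz, lower with library totals, was higher.

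The libraries labelled recipient spleen at 24 weeks had mitosis sums of 212, 212 and 191 CPM and S-phase sums of 399, 424 and 415 CPM, above those of spleens at 3 weeks (mitosis 107 to 127 CPM, S phase 306 to 335 CPM). Cenpa alone gave 519 of 1067 mitosis UMIs in 6MS1 and 244 of 640 in TS1. Of 39 tested genes, 18 were higher and 8 lower, against 29.8% and 30.8% of all genes tested. The other 21 members, 18 of them mitosis genes, had too few UMIs, and a low gene could enter the test through the group where it is high. Without the filter 25 of 60 were higher and 8 lower, a count that cannot be set against the filtered shares above. Nusap1 (3.25 ± 0.42), Kif11 (2.89 ± 0.40), Ccne2 (2.17 ± 0.41), Mki67 (1.61 ± 0.27) and Tk1 (1.39 ± 0.36) were higher, and Kif23 (-1.69 ± 0.26), Smc4 (-1.01 ± 0.08), Tubb5 (-0.90 ± 0.08), Mcm2 (-0.73 ± 0.15) and Mcm3 (-0.72 ± 0.13) lower. Stmn1 was lower by 0.36 ± 0.13, a direction that turned (0.28) among cells with a CD8 UMI and no Cd4 UMI. At 24 weeks thinned mitosis shares were 0.408% to 0.439% in libraries labelled graft and 1.27% to 1.77% in those labelled spleen, and the part that the doubtful labels have in these directions was not tested.

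Rejecting grafts at 1 week were compared with accepted grafts of the same week, with 2 libraries that stood far apart from each other. The S-phase sum was 938 CPM in R7K2 and 2885 CPM in R7K3, and the mitosis sum 1557 and 5694 CPM, so that accepted grafts (2079 to 4165 CPM for mitosis) lay between the 2 values. The thinned share with at least 2 mitosis genes was 10.7% and 53.9%, against 17.6% to 43.9% in accepted grafts. Of 60 genes, 6 were higher and 7 lower in rejecting grafts, against 48.8% higher and 10.5% lower of all genes tested, and the median was 0.19 against 0.70. The members' count lay below the background of higher genes.

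Leaving out R7K2 or R7K3 left 1 rejecting library, so the numbers of genes that passed in those fits are not read as results. Without R7K3 the log2 fold changes of Pclaf, Ccnb1 and Plk1 turned to -1.48, -1.65 and -1.84, so their direction rested on which library was kept. Leaving out 7K1, 7K2 or 7K3 gave 2, 1 and 6 members higher and 4, 5 and 2 lower, against 43.4% to 46.2% higher and 8.26% to 8.93% lower of all genes. With TMM scaling, which took the median of all genes to 0.01, 1 member was higher and 13 lower, against 27.5% higher and 25.7% lower of all genes. Genes with the longest introns were higher by a median of 2.23 on the log2 scale in rejecting grafts and those with the shortest by -0.24, and with that shift taken out 3 members were higher and 7 lower. The shares of all genes in the fit without the shift are not given here, and those of the other fits do not apply to it.

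Ccne2 was higher in both rejecting libraries, at 30.7 and 84.4 CPM against 13.1, 9.0 and 18 CPM in accepted grafts (2.11 ± 0.41, adjusted p = 0.0022). The groups did not overlap for Ccne2 or for Cdc6, at 17.7 and 63.9 CPM against 12.9, 9.28 and 17.1 CPM (1.65 ± 0.45). Top2a (1.56 ± 0.42), Mcm7 (1.44 ± 0.39), Ccne1 (1.18 ± 0.40) and Ezh2, a histone methyltransferase (0.97 ± 0.34), were also higher, and the direction of Ezh2 turned with the intron shift taken out. For Ccne1 and Ezh2 the level of R7K2 lay within the range of the accepted grafts, so only R7K3 stood above it. Cks1b (-1.62 ± 0.49), Ube2c (-1.55 ± 0.50), Cenpa, the centromeric histone (-1.49 ± 0.29), Stmn1 (-1.42 ± 0.43), H2afz (-1.37 ± 0.37), Dut (-1.22 ± 0.39) and Cks2 (-1.07 ± 0.41) were lower. Cenpa was at 71.9 and 128 CPM against 266, 229 and 350 CPM, with no overlap. Mki67, at 247 and 898 CPM, did not pass (0.93 ± 0.48, adjusted p = 0.12), nor did Birc5 (-0.77 ± 0.61), Mcm5 (0.52 ± 0.40) or Pcna (-0.47 ± 0.27).

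In the rejection model too the graft stood above its own spleen. The mitosis sum was 1286, 1187 and 777 CPM in the 3 rejecting spleens, below the 1557 and 5694 CPM of the rejecting grafts, and it overlapped with the 528, 560 and 1226 CPM of accepting recipients' spleens. Of 57 genes tested 30 were higher in the graft and none lower, against 10.8% higher and 5.34% lower of all genes, with medians of 1.65 and 0.25. Bub1 (2.62 ± 0.67), the kinetochore motor Cenpe (2.49 ± 0.55), Spc25 (2.27 ± 0.61), Cdc6 (2.27 ± 0.61) and Mki67 (2.17 ± 0.42) were among them, and the smallest differences were those of Cdt1 (-0.19 ± 0.39), Smc4 (0.01 ± 0.31) and Tubb5 (0.35 ± 0.34). Ccnb1, at 11.4 and 67.8 CPM against 6.29, 26.1 and 3.02 CPM, missed the threshold (2.45 ± 0.80, adjusted p = 0.052). The count was 5, 15 and 6 without R7S1, R7S2 and R7S3, and 16 with TMM scaling. Without R7K2 or R7K3 only 1 graft library was left, and member counts of those fits are not read as results. The shares of all genes in the fits with counts are not given here, so these counts are not read against a background.

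All CD45+ cells of the rejecting grafts were clustered without the cell cycle genes to see in which cells the programme stood. The 11948 cells of R7K2 and R7K3 held CD8 T-like cells (1158 and 915), CD4 T-like (257 and 339), NK-like (321 and 250), monocyte or macrophage-like (2812 and 3915), dendritic-like (63 and 258), plasmacytoid dendritic-like (30 and 62) and B-like cells (86 and 22). A cluster led by S100a9 (239 and 504 cells) and 6 cells led by Calb1 stayed unnamed, and a cluster with markers of T cells and of macrophages (409 and 302 cells) was kept as mixed lineage. Its median of 3921 and 5356.5 UMIs lay above those of CD8 T-like cells (1697.5 and 2980). With 1 library per value there is no test, and the intervals are exact Clopper-Pearson intervals at 95% that cover counting error only.

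CD8 T-like cells held the highest S-phase share in each library. In the mitosis share, dendritic-like cells stood above them in R7K2, as given below. At least 2 S-phase genes were found in 15.5% of them in R7K2 (13.4% to 17.7%) and in 52.8% in R7K3 (49.5% to 56.1%), and at least 2 mitosis genes in 12.3% (10.4% to 14.3%) and 54.3% (51.0% to 57.6%). Without thinning the mitosis shares were 19.5% and 70.1%. When the members were kept among the genes used for clustering, CD8 T-like cells had mitosis shares of 25.1% in R7K2 and 87.2% in R7K3. Such clusters sort cells by the genes that are then counted, so these higher shares are not a separate result. CD4 T-like cells had mitosis shares of 5.06% (2.72% to 8.49%) and 44.8% (39.5% to 50.3%) and S-phase shares of 10.9% and 43.7%. The difference between the libraries was therefore seen in both kinds of T-like cells, and in NK-like cells with mitosis shares of 6.85% (4.34% to 10.2%) and 18.4% (13.8% to 23.8%).

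Among the myeloid classes, monocyte or macrophage-like cells had mitosis shares of 4.05% (3.36% to 4.85%) and 4.90% (4.25% to 5.63%) and S-phase shares of 3.13% and 5.52%. Each cluster of this class held cells of both libraries, in differing proportions. Cells of R7K2 and R7K3 numbered 1048 and 699 in the cluster led by Cxcl2 and 680 and 704 in that led by C1qb. They numbered 552 and 389 in that led by Nrg2 and 283 and 416 in that led by Adgre4. The split was most uneven in the clusters led by Ly6i (242 and 1270) and Ccl7 (7 and 437). Over both libraries the mitosis share of these clusters ran from 1.39% (Ly6i) to 10.04% (C1qb). The S-phase share ran from 1.00% (Adgre4) to 10.98% (C1qb), so the class share averages over unlike clusters. Dendritic-like cells had mitosis shares of 22.2% (12.7% to 34.5%) and 17.4% (13% to 22.6%), with intervals that overlap. The cluster led by S100a9 had 0.837% and 0.794% for S phase and 1.26% and 0.992% for mitosis, at median depths of 2039 and 2278.5 UMIs. This cluster had the lowest shares of the classes with over 100 cells and is given as the background. The mixed lineage cluster had mitosis shares of 7.09% (4.80% to 10.0%) and 36.8% (31.3% to 42.5%). B-like cells had S-phase shares of 6.98% (2.60% to 14.6%) and 13.6% (2.91% to 34.9%). In 30 plasmacytoid dendritic-like cells of R7K2 no cell had 2 mitosis genes, which allows a share of up to 11.6%, and their mitosis sum was 105 CPM in R7K2 and 602 CPM in R7K3.

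Levels of single genes are given for the same classes, as UMIs summed over all cells of a class. Mki67 was at 270 and 874 CPM in CD8 T-like cells of R7K2 and R7K3, at 228 and 1018 CPM in CD4 T-like cells, at 106 and 432 CPM in NK-like cells, at 295 and 314 CPM in dendritic-like cells, at 64.4 and 77.7 CPM in monocyte or macrophage-like cells and at 18 and 22 CPM in the cluster led by S100a9. Stmn1 was at 133 and 349 CPM in CD8 T-like cells and at 26.0 and 39.0 CPM in monocyte or macrophage-like cells. Pcna stood closer together across the classes, at 83.6 and 158 CPM in CD8 T-like cells, 58.3 and 55.3 CPM in monocyte or macrophage-like cells and 68.4 and 42.5 CPM in the cluster led by S100a9.

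**Figure D5:**
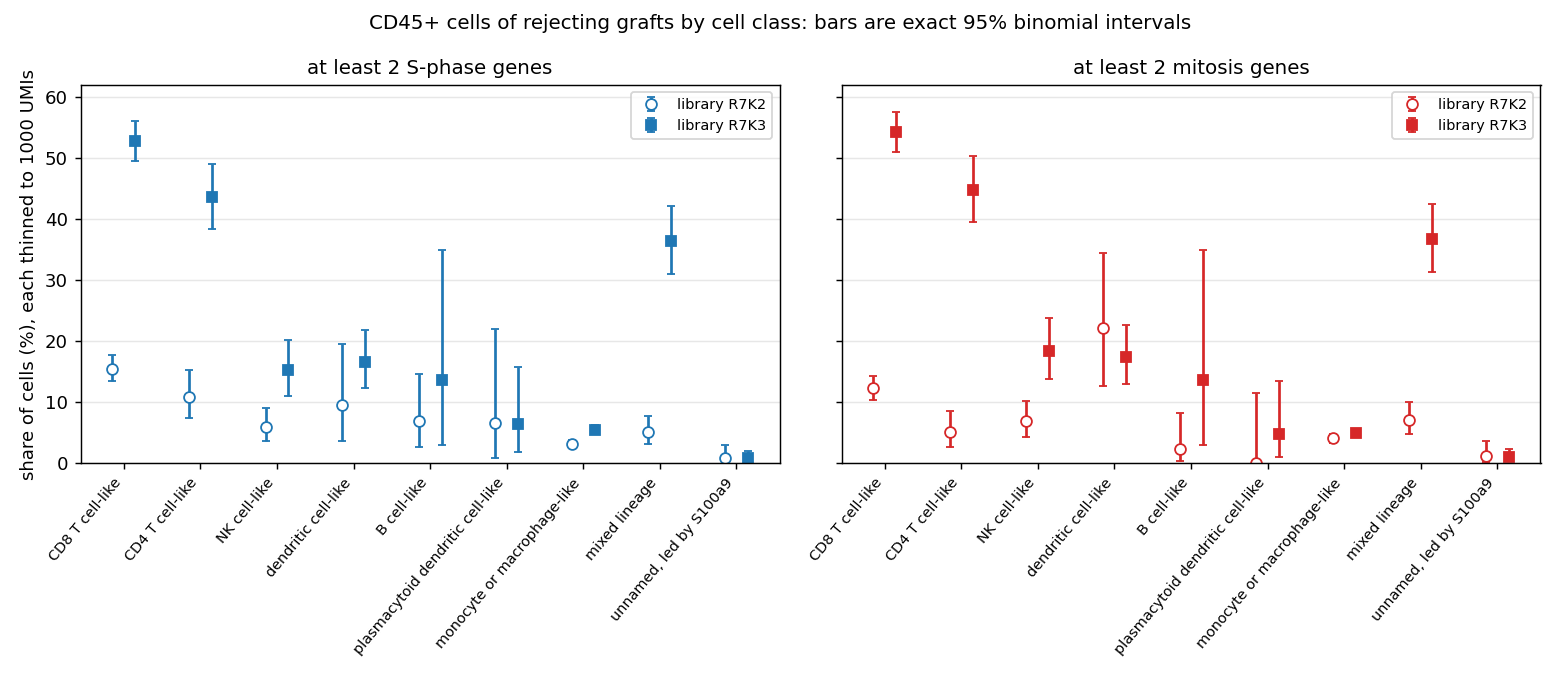
Share of CD45+ cells (%) of rejecting grafts with UMIs of at least 2 S-phase genes (left) or 2 mitosis genes (right) after thinning to 1000 UMIs, by cell class and library, with exact 95% binomial intervals as bars. Open points are R7K2 and filled points R7K3. CD8 T-like and CD4 T-like cells lie far higher in R7K3, while monocyte or macrophage-like cells lie between 3.13% and 5.52% in both.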

How the data were processed

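The authors mapped reads with Cell Ranger to mm10, per the submitters' processing notes, filtered cells, called cell types and deposited raw UMI counts without normalization. No version, filter limit or doublet step is given in the sources used here. Samples were grouped by their GEO titles, and the tags that cell barcodes carry served as replicates. Their numbers equal the replicates the study states for the accepted recipients at each time, and none are stated for the other groups. No label ties a tag to a mouse, so p-values measure the spread between libraries. The members, the lists and the role groups were chosen with earlier results of these data known.

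UMIs were summed per library over all cells of each CD8+ T cell matrix and scaled by plain library totals. In 10 comparisons the quasi-likelihood model of edgeR 4.0.16 (run in R 4.3.3, genes kept by filterByExpr) was fitted over all genes listed in each matrix compared (16243 genes are in all 9), with Benjamini-Hochberg adjustment over the genes tested and a threshold of 0.05. Errors of log2 fold changes are standard errors. On simulated counts the test recovered 60%, 92%, 100% and 100% of genes changed 1.5, 2, 4 and 8-fold for accepted grafts at 3 against 1 week (11693 genes), and 6%, 38%, 72% and 92% for rejecting against accepted grafts (12533 genes). The simulation changed 50 genes per fold, equally up and down, with the spread taken from the trend over all genes. In the data far more genes changed, so these rates need not hold for the members. The alternatives were TMM factors, DESeq2 1.42.0, no filter, genes of any matrix, cells with a CD8 UMI and no Cd4 UMI, cells thinned to 1000 UMIs, 1 fit on all libraries, each library left out and, added after seeing the data, a fit with the median shift of 10 groups of genes by total intron length removed, the library number as a block and, for the cell classes, the 5% of cells with the highest doublet scores left out. Intron lengths were known for 31424 of 32285 symbols (97.33%).

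Genes named are Mki67, Top2a, Birc5, Pclaf, Stmn1, Mcm5, Pcna, Tyms, Rrm2, Gins2, Cdk1, Ccnb1, Plk1 and Ccne1, the 5 highest and 5 lowest tested members of each comparison, and exceptions in a role group or untested members. H2afz, Dut, Cks2 and Ezh2 in the rejection comparison and the genes outside the 60 were chosen after their values were seen.

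For shares, each cell was thinned to 1000 UMIs with a fixed seed, which left out 313 of 11913 cells in recipient spleens at 1 week, 53 of 5891 at 3 weeks, 97 of 4538 at 24 weeks and 1 of 4681 in naive spleen. The CD45+ cells of rejecting grafts were clustered in scanpy 1.11.5 (2000 variable genes, 30 principal components, 15 neighbors, Leiden resolution 0.8 with leidenalg 0.10.2) without the members, the other cell cycle genes and histone genes. Clusters were named from fixed markers, but the score that set names against markers was chosen after the clusters were seen, and another naming could move cells between classes. Scrublet marked 1 of 5377 and 2 of 6571 cells as doublets, which is too few to have worked, so none was removed in the main result. UMIs remove copies made by PCR, and intervals cover counting error only. CD45+ matrices of other groups were not used here.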

Additional observations from a re-analysis of the deposited data

Results flagged for a closer look

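In 5 results the change from 1 to 3 weeks differed between the accepted graft and the recipient spleen by the test of the difference itself. On the log2 scale, graft change minus spleen change was -1.46 for Mcm5, -0.70 for Pcna, -1.85 for Gins2, -1.13 for Ccne1 and -3.32 for Stmn1. In total 31 of the 60 members passed this test, all with the more negative change in the graft, against 10.9% of the 12319 genes tested.

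Single libraries stood apart from their group by Dixon's ratio in 3 of 54 groups of values of the named members, where chance flags about 5%. Gins2 was at 3.84 CPM in the accepted graft library TK1 at 3 weeks, and at 6.83 to 7.79 CPM in the other 4. Mcm5 was at 11.02 CPM in the naive spleen NS3, and at 13.6 to 14.1 CPM in the other 4. Gins2 was at 5.49 CPM in the naive spleen NS1, and at 2.62 to 3.35 CPM in the other 4. Groups of 2 or 3 libraries were not tested in this way.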

How the results depend on the processing

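The fall between 1 and 3 weeks in the graft (59 to 60 lower with any library left out, none higher) and the excess of graft over spleen at 1 week (57 to 59 higher, none lower) kept their counts within 1.5 times under all alternatives tried, and no member called there turned its sign with TMM factors, DESeq2 or the intron length shift removed. Other counts moved. Accepted grafts at 24 against 3 weeks had 11 members higher with TMM and 11 with DESeq2 (7 to 7 with a library left out, 31 to 32 lower). Rejecting against accepted grafts had 1 higher with TMM, 1 with DESeq2, 12 without the filter, 16 in 1 fit on all libraries and 3 with the intron shift removed, and 13, 15, 4 and 13 lower with TMM, DESeq2, thinned cells and 1 fit (1 to 35 higher and 2 to 36 lower with a library left out). The upper ends of these ranges come from the fits without R7K2 or R7K3. Those fits left 1 rejecting library, so their counts are not read as results. Without 7K1, 7K2 and 7K3 the counts were 2, 1 and 6 higher and 4, 5 and 2 lower. In the same comparison Pclaf, Ccnb1 and Plk1 turned to -1.48, -1.65 and -1.84 without R7K3. Recipient spleen at 1 week against naive had 18 higher with thinned cells (30 members tested) and 2 lower with DESeq2 (47 to 50 and 4 to 4 with a library left out). Spleen at 3 against 1 week had 1, 1, 5, 1 and 4 higher with TMM, DESeq2, thinned cells, 1 fit and the intron shift removed, and 18 lower with thinned cells (32 tested, where Mcm5 turned to 0.0705), with 1 to 3 higher and 47 to 51 lower when a library was left out. Spleen at 24 against 3 weeks had 9 higher with thinned cells and 5 lower in 1 fit (17 to 19 and 6 to 9), and Stmn1 turned to 0.28 in cells with a CD8 UMI and no Cd4 UMI. Rejecting graft against its spleen had 16, 9, 46, 19, 48 and 11 higher with TMM, DESeq2, no filter, thinned cells, 1 fit and the intron shift removed (2 to 56 with a library left out). The ends of this last range come from the fits without R7K2 or R7K3. Those fits left 1 graft library, so their counts are not read as results. Without R7S1, R7S2 and R7S3 the count was 5, 15 and 6. Accepted graft at 3 weeks against naive spleen had 18 higher with thinned cells and 5 lower in 1 fit (25 to 31 and 7 to 9). The difference between graft and spleen change had 28 to 43 lower and 0 to 1 higher with a library left out. The cause of these moves was not tested. Counts in this section stand without the share of all genes in the same fit. They show how a count moved and not how the members stood against all genes.

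The ratio of 1 to 3 weeks in the share of cells with 2 S-phase genes (4.10) was 7.19 at 500 UMIs, 1.92 without thinning, 1.504 with at least 1 gene and 20.3 with at least 3, and that of mitosis genes (12.3) was 29.4, 4.44, 2.28 and 187 (3.18 to 4.74 and 8.72 to 14.5 with a library left out). In CD8 T-like cells of R7K2 the S-phase share was 21.96% at a resolution of 1.5 and 23.4% when clustered with the members. The mitosis share of these cells was 18.1% and 25.1%. In R7K3 the shares with the members were 69.7% and 87.2%, and the mitosis share 57.6% at a resolution of 1.5. Clusters formed with the members sort cells by the genes that are then counted, so those shares are not a separate check. With the library number as a replicate block, 59 members were higher in graft than in spleen at 1 week and 36 in the rejection model, and the numbers are not shown to pair the libraries. Among results for single named genes, 3079 kept direction and call, 140 lost the call, 100 gained it and 5 turned. Of 30 mitosis genes, 13 had too few UMIs to be tested between accepted grafts at 3 weeks and naive spleens.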
